A study of Mus musculus with 2 samples.

Results

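The cells described here are ventricular cardiomyocytes of adult mice, compared by how much RNA each one yielded. RNA content was taken as the number of unique molecular identifiers (UMIs) assigned to genes, divided by the number assigned to the ERCC spike-in RNAs, synthetic transcripts that serve as a yardstick of recovery. Of 404 labelled cells in the series, 332 belonged to a study of several heart chambers, and 192 of these carried a left ventricle (LV) or right ventricle (RV) label. At least 5000 gene UMIs and at least 50 ERCC UMIs were found in 175 of the 192 cells, 88 from LV and 87 from RV. Within each of 4 libraries (A to D) and each chamber these cells were ranked by RNA content and cut into 3 parts. The top parts together held 56 RNA-rich cells and the bottom parts 56 RNA-poor cells, with 63 cells between them.

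All cells came from wild type C57BL/6 mice about 3 months old and had not been treated with ethanol. Hearts were digested enzymatically on a Langendorff apparatus with an enzyme flow of 1.5 mL/min over 9 minutes. Single cells were then sorted by large particle flow cytometry into 96-well plates and sequenced with SCRB-seq, a plate method that counts 3′ ends of polyadenylated RNA with UMIs. The labels name no animal, so the number of hearts behind the libraries was not known here. Each group was therefore treated as 1 pool of cells: no test was made, and the 4 libraries and the 2 chambers give the spread.

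Adult ventricular myocytes are large, mostly postmitotic cells filled with sarcomeres and mitochondria. In many cell types the amount of RNA scales with cell volume, so that larger cells hold more of nearly every transcript while the proportions stay similar. Cardiac myocytes enlarge under load, and a fetal set of contractile and stretch genes is known to be raised when they do so under disease.

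The quantity that selected the cells is given first, as a description. Median RNA content was 165 gene UMIs per ERCC UMI in RNA-rich cells (range 87.6 to 280), 109 in the middle cells and 76.1 in RNA-poor cells (range 15.8 to 132). The ranges overlap because cells were ranked within library and chamber, where they cannot. Median gene UMIs were 66888 in RNA-rich cells, 51559 in middle cells and 35541.5 in RNA-poor cells. The ERCC count ran the other way, with medians of 401.5 UMIs in RNA-rich cells, 460 in middle cells and 498 in RNA-poor cells. Both parts of the ratio thus differed between the groups: the median gene UMI count was higher in RNA-rich cells in 7 of 8 library and chamber sets, and the median ERCC count was lower in 6 of 8.

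**Figure D1:**
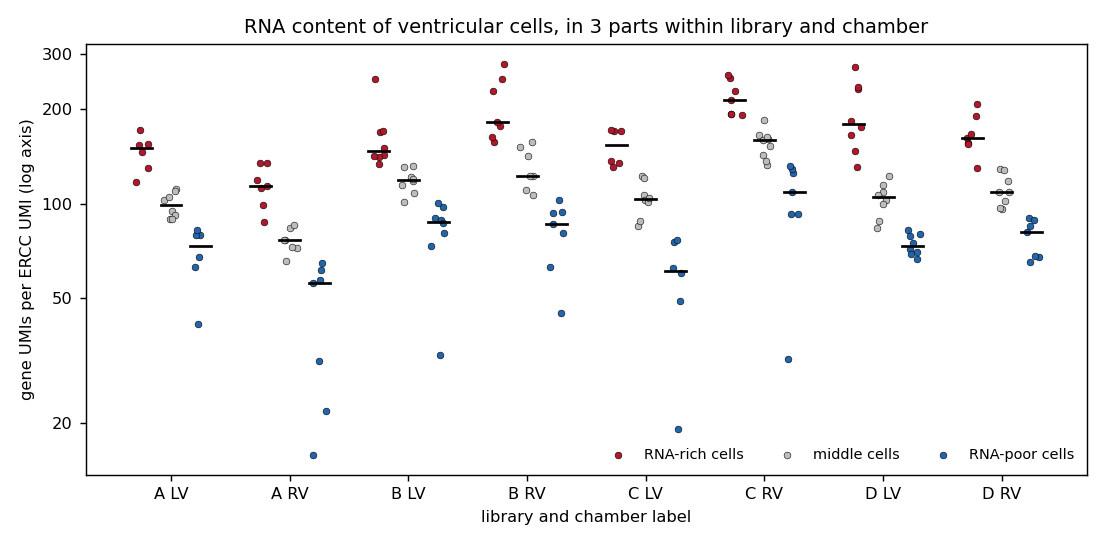
RNA content of each ventricular cell (gene UMIs per ERCC UMI, log axis) by library and chamber, with RNA-rich cells in red, middle cells in grey, RNA-poor cells in blue and a bar at each median. Within every set the 3 parts follow each other without overlap because they were cut by this value; a few RNA-poor cells, down to 15.8, lie far below the rest of their set.

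Cells on either side of a boundary were close in RNA content. The lowest RNA-rich cell exceeded the highest middle cell by 0.181% to 7.41% across the 8 sets, and the lowest middle cell exceeded the highest RNA-poor cell by 0.193% to 10.5%. In RV cells of library B the lowest RNA-rich cell had 157.4 gene UMIs per ERCC UMI and the highest middle cell 157.2. Ranking by gene UMIs without the spike-ins would have chosen different cells in many cases. Of the 56 RNA-rich cells 32 were also in the top part by gene UMIs alone and 9 were in the bottom part, and of the 56 RNA-poor cells 28 were in the bottom part and 5 in the top part.

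Summed over cells, the RNA-rich pool held 4094169 gene UMIs and the RNA-poor pool 2052948. Per ERCC UMI these were 164 in RNA-rich cells and 71.4 in RNA-poor cells, a 2.29-fold difference. By library that ratio was 2.59, 2.18, 2.20 and 2.26 (A to D), and it was 2.27 in LV and 2.31 in RV. Leaving out mitochondrially encoded UMIs gave 2.35-fold, with 2.94, 2.41, 2.08 and 2.18 in libraries A to D. All levels below are CPM, counts scaled to 1000000 nuclear-encoded UMIs, so they are shares of a cell's nuclear-encoded messages and not amounts per cell. A gene whose share was equal in both pools was thus 2.35-fold more abundant per spike-in UMI in RNA-rich cells.

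The myocyte label was checked against 10 ventricular myocyte markers, Myl2, Myl3, Myh6, Tnni3, Tnnt2, Actc1, Ttn, Ryr2, Pln and Mb. Their median share of nuclear-encoded UMIs was 8.62% in RNA-rich cells, 8.19% in middle cells and 7.56% in RNA-poor cells. A share under 5% was found in 1 RNA-rich cell, 3 middle cells and 6 RNA-poor cells. The single RNA-rich cell, an LV cell of library A with 91793 gene UMIs, had 0.848% myocyte marker UMIs, 0.954% endothelial marker UMIs and 8.76% mitochondrial UMIs, so its label was not borne out by its markers. It stays in the group because the rule keeps it. It supplied 3.50% of the nuclear-encoded UMIs of the RNA-rich pool, and values to which it gave more than 10% are marked below for the gene lists. No doublet caller was run. More than 2% of UMIs came from markers of other cell types in 10 RNA-rich, 16 middle and 18 RNA-poor cells.

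Wells of different libraries that carry the same cell barcode share a barcode primer, and 34 of the 48 barcodes seen among these cells occurred in all 4 libraries. The rank of RNA content of wells with the same barcode was correlated between libraries, with Spearman's rho from 0.0917 (A and D) to 0.573 (C and D) over 37 to 43 barcodes for each of the library pairs. For gene UMIs the same coefficient ranged from -0.0899 to 0.306. Of the 34 shared barcodes, 3 were RNA-rich and 3 RNA-poor in all 4 libraries. Dividing each well by the content of its barcode in the other libraries and cutting again left a 1.80-fold difference in gene UMIs per ERCC UMI. How far barcodes account for the spread of RNA content was not tested. The median number of reads per UMI was 7.25 in RNA-rich cells, 7.35 in middle cells and 6.96 in RNA-poor cells. After every cell was thinned to 5000 UMIs, the median number of genes detected was 1286 in RNA-rich cells, 1258 in middle cells and 1220 in RNA-poor cells, against 4795, 4166 and 3489.5 before thinning.

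Mitochondrial RNA took nearly the same share of both groups. Per cell, its median share of gene UMIs was 42.8% in RNA-rich cells, 39.5% in middle cells and 40.7% in RNA-poor cells. In the pools it was 41.6% in RNA-rich cells and 43.1% in RNA-poor cells. By library the RNA-rich share was 34.9%, 44.4%, 44.5% and 41.7% (A to D) and the RNA-poor share 42.6%, 49.8%, 41.5% and 39.6%. The share was therefore lower in the RNA-rich pool in libraries A and B and higher in C and D. Mitochondrial UMIs are part of the RNA content that ranked the cells, so this share is not independent of how the groups were chosen. With RNA content taken from nuclear-encoded UMIs only, RNA-rich minus RNA-poor was -8.63 percentage points, against -1.48 here. Cells above 60% mitochondrial UMIs numbered 0 of the RNA-rich, 1 of the middle and 5 of the RNA-poor cells.

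Single mitochondrial transcripts differed in how they lay between libraries. The ribosomal RNA mt-Rnr1 was 1.03-fold and mt-Rnr2 0.946-fold their RNA-poor share, mt-Co1 (a subunit of cytochrome oxidase) 0.962-fold and mt-Nd5 (complex I) 0.973-fold. The complex I messages mt-Nd1, mt-Nd2 and mt-Nd4l and the cytochrome b message mt-Cytb were 0.842-, 0.829-, 0.809- and 0.845-fold. These 4 were lower in RNA-rich cells in libraries A and B and within 0.08 of equal, on the log2 scale, in C. The transfer RNA mt-Tq had 312, 205, 287 and 279 CPM in RNA-rich cells of libraries A to D and 606, 427, 410 and 504 CPM in RNA-poor cells. Its groups did not overlap, and its fold was 0.555 with a counting interval of 0.495 to 0.623, an exact 95% interval that covers counting error only. The list of mitochondrially encoded genes, which leaves out mt-Tq, had 13 measured members. Of these 1 was at least 1.5-fold higher in RNA-rich cells and 0 lower, beside 17.9% and 10.4% of the 9051 nuclear-encoded genes below. The list had 3 members above 0 and a median log2 ratio of -0.13. By library that median was -0.42, -0.31, 0.16 and -0.0024 (A to D).

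Most nuclear-encoded genes kept their share. Among 9051 genes with at least 30 UMIs in both groups together, the log2 ratio of RNA-rich over RNA-poor (with 5 CPM added to each side) had a median of 0.08. It was at least 1.5-fold higher in 1624 genes (17.9%) and at least 1.5-fold lower in 940 (10.4%). Most of these calls lie among genes with few UMIs, where counting error alone is wide. A tighter rule, set after the values were seen, asked also that the exact 95% interval exclude a ratio of 1 and that all 4 libraries lie on the same side. It left 628 genes higher (6.94%) and 215 lower (2.38%). Among the 480 genes with at least 1000 UMIs, 96.0% lay within 1.5-fold, 14 were higher and 5 lower. Log2 CPM of the pools was correlated across the 9051 genes with Pearson's r = 0.923, where both pools share libraries and genes are not independent.

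**Figure D2:**
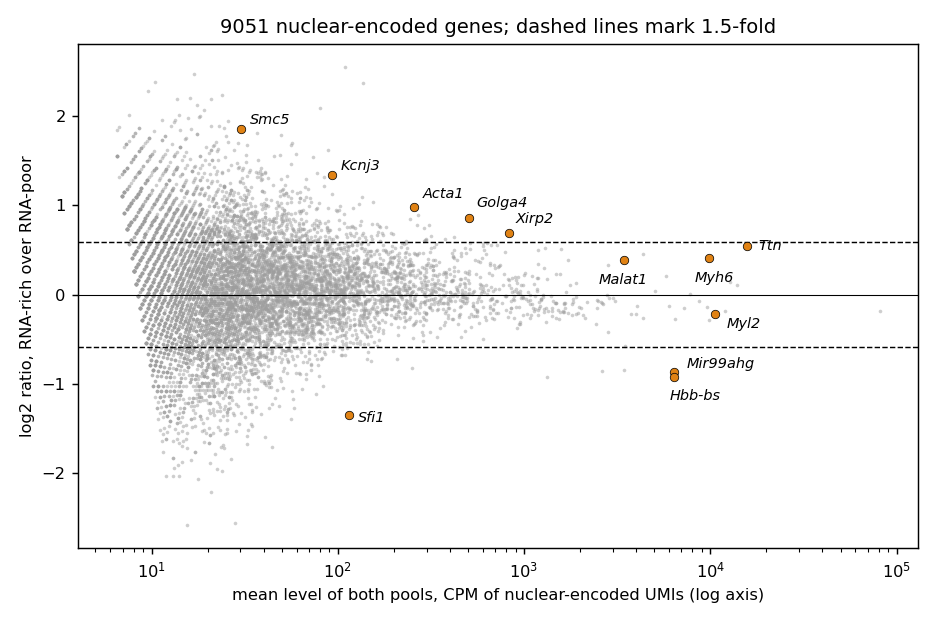
Log2 ratio of RNA-rich over RNA-poor cells for 9051 nuclear-encoded genes against their mean level in CPM (log axis), with dashed lines at 1.5-fold and selected genes in orange. The scatter narrows as levels increase, and among abundant genes Mir99ahg and the haemoglobin gene Hbb-bs lie below the lower line while Ttn lies just inside the upper one.

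Scaled to the spike-ins, the pools differ by the choice of the cells, which were cut by gene UMIs per ERCC UMI, so higher amounts in RNA-rich cells are no finding. On that scale 361 of 9051 genes had less in RNA-rich than in RNA-poor cells, and 19 of the 4494 genes with at least 100 UMIs. The most abundant nuclear-encoded entry, CT010467.1, annotated as a ribosomal RNA gene, took 76566 CPM in RNA-rich cells and 86896 CPM in RNA-poor cells. Of 37 lists of myocyte genes with at least 5 measured members (816 genes), 33 had a median log2 ratio within 0.3 of 0. In 4 lists it was above 0.3, in 0 below -0.3, and in 0 did the median pass 1.5-fold. Counts of higher and lower members given below stand beside 17.9% higher and 10.4% lower of all 9051 genes.

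**Figure D3:**
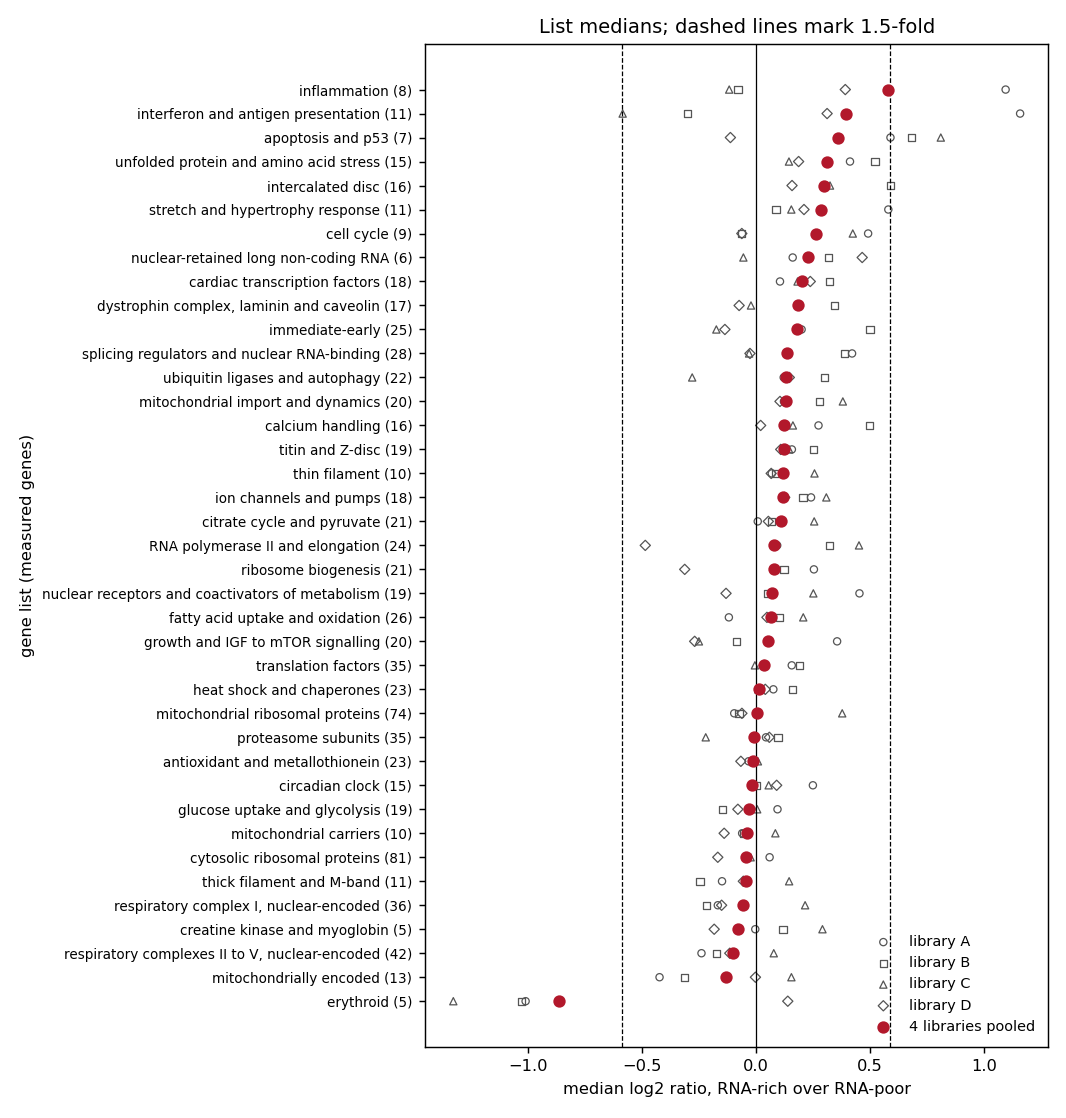
Median log2 ratio of RNA-rich over RNA-poor cells for each gene list, pooled (red) and within each library (open symbols), with dashed lines at 1.5-fold and the number of measured genes in parentheses. Most red points lie near 0, the erythroid list lies at -0.86 except in library D, and the lists at the top rest on few genes with wide spread between libraries.

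Most sarcomere genes kept their share. Pdlim3, Myh7b and Acta1, all far less abundant than titin, passed 1.5-fold, and the titin message lay just under it. Ttn, at chr2:76703980-76982547 on the minus strand of GRCm38, encodes the giant elastic protein that spans each sarcomere from Z-disc to M-band. It had 15114, 23819, 16576 and 18650 CPM in RNA-rich cells of libraries A to D, and 11634, 12312, 11313 and 15074 CPM in RNA-poor cells. RNA-rich cells were higher within every library, and the lowest RNA-rich library value was 15114 beside a highest RNA-poor one of 15074. Pooled, Ttn was 18665 CPM in RNA-rich cells, 16439 in middle cells and 12832 in RNA-poor cells, a ratio of 1.45 (counting interval 1.43 to 1.48). Per cell the medians were 15435 CPM in RNA-rich cells, 14791 in middle cells and 11697 in RNA-poor cells, and the RNA-rich median was higher in 6 of 8 library and chamber sets. The log2 ratio was 0.25 in LV and 0.76 in RV, and 0.19 when RNA content was divided by that of the same barcode in the other libraries, against 0.54.

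Other titin and Z-disc genes differed less. The 19 measured members had a median log2 ratio of 0.12, with 1 higher, 0 lower and 16 above 0. That member, Pdlim3, a Z-disc LIM protein, owed 46.1% of its RNA-rich UMIs to 1 cell. Summed, the list took 34337 CPM in RNA-rich cells and 27452 CPM in RNA-poor cells. Its median was -0.03 in LV and 0.27 in RV, and -0.04 with cells ranked by gene UMIs alone. Cryab, a small heat shock protein bound to Z-discs and titin, was at 2415 CPM in RNA-rich cells and 2523 CPM in RNA-poor cells, and Tcap, the titin cap, at 1842 CPM in RNA-rich cells and 1708 CPM in RNA-poor cells. Ankrd1, a stretch-responsive titin partner, had 1051, 565, 734 and 689 CPM in RNA-rich libraries A to D and 556, 403, 448 and 595 CPM in RNA-poor ones. It was higher in RNA-rich cells within each library, 1.49-fold pooled, although the library values of the groups overlapped.

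Myosin genes differed in direction. Myh6, the main adult mouse myosin heavy chain, had 9974, 12716, 10633 and 11579 CPM in RNA-rich libraries A to D and 8049, 9027, 8784 and 8217 CPM in RNA-poor ones. The groups did not overlap, and the ratio was 1.32 (counting interval 1.29 to 1.36). Myl2, the ventricular regulatory light chain, was 9134, 9228, 10191 and 11084 CPM in RNA-rich cells and 11149, 11277, 11022 and 11972 CPM in RNA-poor cells. It was lower in RNA-rich cells in each library, with a ratio of 0.863, but the highest RNA-rich value exceeded the lowest RNA-poor one. Myl3, the essential light chain, had a ratio of 0.904. The 11 measured genes of the thick filament and M-band had a median of -0.05 with 1 higher and 0 lower. The higher one was Myh7b, a minor myosin heavy chain, at 301, 172, 137 and 230 CPM in RNA-rich libraries and 83.6, 105, 61.0 and 135 CPM in RNA-poor ones, 2.11-fold pooled (counting interval 1.72 to 2.60). Ranked by gene UMIs alone, its log2 ratio was -0.09.

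Thin filament genes were near even. The list of 10 took 48367 CPM in RNA-rich cells and 46636 CPM in RNA-poor cells, with a median of 0.12. Tropomyosin Tpm1 was 1.08-fold, troponin T (Tnnt2) 1.10-fold, cardiac actin (Actc1) 1.00-fold and troponin I (Tnni3) 0.897-fold its RNA-poor level. Skeletal actin Acta1, a fetal isoform that marks enlarged myocytes in disease, was the single member past 1.5-fold. Its levels were 446, 109, 634 and 186 CPM in RNA-rich libraries A to D and 297, 96.6, 132 and 169 CPM in RNA-poor ones. The pools were at 341 CPM in RNA-rich cells and 170 CPM in RNA-poor cells (counting interval of the ratio 1.71 to 2.35), but libraries B and D differed little and 19.1% of RNA-rich UMIs came from 1 cell. With cells ranked by gene UMIs alone its log2 ratio was -0.31.

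Calcium handling genes were on the higher side mainly in RV. The list of 16 measured genes had a median of 0.12, with 0 past 1.5-fold in either direction and 12 above 0, and a median of -0.02 in LV and 0.33 in RV. Cacna1c, the pore of the L-type calcium channel, had 1464, 2306, 1692 and 1905 CPM in RNA-rich libraries and 1045, 1268, 1261 and 1519 CPM in RNA-poor ones. It was 1.42-fold in the pools, with a log2 ratio of -0.05 in LV and 0.95 in RV. Slc8a1, the sodium-calcium exchanger, was 1.48-fold, Trdn (triadin, of the release complex) 1.41-fold, the release channel Ryr2 1.26-fold and the pump Atp2a2 1.15-fold. Phospholamban (Pln), which inhibits that pump, was 1062 CPM in RNA-rich cells and 1038 CPM in RNA-poor cells. Chamber differences were not tested, here and for the genes below.

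Among 18 measured ion channels and pumps, 3 were higher and 1 was lower, beside 17.9% higher and 10.4% lower of all genes, and the median was 0.12. Kcnj3, a subunit of the potassium channel opened by acetylcholine, had 101, 175, 120 and 142 CPM in RNA-rich libraries A to D and 66.9, 48.3, 33.9 and 54.5 CPM in RNA-poor ones. Every RNA-rich value was above every RNA-poor one, with a ratio of 2.68 (counting interval 2.02 to 3.59). Kcnd2, a subunit of the transient outward potassium current, was 612 CPM in RNA-rich cells and 409 CPM in RNA-poor cells, with a log2 ratio of -0.25 in LV and 1.35 in RV. Atp1b1, an accessory subunit of the sodium pump, was 71.6 CPM in RNA-rich cells and 29.1 CPM in RNA-poor cells, 2.46-fold, with a log2 ratio of -0.22 when cells were ranked by gene UMIs alone.

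Genes of the intercalated disc, which joins myocytes end to end, were above an even share in nearly all members. Of 16 measured, 15 had a log2 ratio above 0, although 1 passed 1.5-fold, and the median was 0.30. By library the median was 0.30, 0.59, 0.32 and 0.16 (A to D). Xirp2, an actin-binding protein of the disc, was 822, 1274, 992 and 966 CPM in RNA-rich libraries and 430, 697, 719 and 654 CPM in RNA-poor ones. These did not overlap, and the ratio was 1.61 (counting interval 1.48 to 1.75). Desmoplakin (Dsp) was 1.25-fold and Ctnna3, an alpha-catenin of the disc, 1.24-fold. In the dystrophin, laminin and caveolin list of 17 genes the median was 0.18. By library that median was 0.18, 0.34, -0.02 and -0.07 (A to D), and it was 0.01 in LV and 0.10 in RV. Dystrophin itself (Dmd) was 1.44-fold, and Lama2, a laminin chain that the dystrophin complex binds, 1.60-fold, with a log2 ratio of -0.13 in LV and 1.61 in RV.

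Energy metabolism genes kept their share or lay slightly below it. The 36 measured nuclear-encoded genes of respiratory complex I had a median log2 ratio of -0.06, with 0 past 1.5-fold in either direction, and summed to 25077 CPM in RNA-rich cells and 26880 CPM in RNA-poor cells. The 42 genes of complexes II to V had a median of -0.10, with 6 above 0, 1 higher and 1 lower, and summed to 56034 CPM in RNA-rich cells and 60777 CPM in RNA-poor cells. In library C both medians were above 0, at 0.22 and 0.08. Cox8a, a small subunit of cytochrome oxidase, was 459, 322, 410 and 332 CPM in RNA-rich libraries and 547, 515, 505 and 556 CPM in RNA-poor ones. Its groups did not overlap, with a ratio of 0.715 (counting interval 0.645 to 0.793). Cox6a2, a muscle isoform subunit of the same complex, was 0.861-fold, the respiratory chain subunit Ndufa4 0.831-fold and the ATP synthase subunit Atp5b 0.977-fold.

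Fuel genes were even. Fatty acid uptake and oxidation had a median of 0.06 over 26 genes, the citrate cycle and pyruvate list 0.11 over 21, and glycolysis -0.03 over 19. Lipoprotein lipase (Lpl) was 2981 CPM in RNA-rich cells and 2603 CPM in RNA-poor cells. The fatty acid carrier Fabp3 was 2503 CPM in RNA-rich cells and 2656 CPM in RNA-poor cells. Aldolase (Aldoa), muscle creatine kinase (Ckm), myoglobin (Mb) and the ADP/ATP carrier Slc25a4 lay between 0.948- and 1.00-fold. Among the exceptions, Mpc1, a subunit of the mitochondrial pyruvate carrier, was 87.0 CPM in RNA-rich cells and 38.5 CPM in RNA-poor cells, and the glycolytic kinase Pgk1 83.3 CPM in RNA-rich cells and 46.2 CPM in RNA-poor cells.

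The machinery that makes RNA and protein lay near an even share in the pools, although the libraries differed for some lists. Cytosolic ribosomal protein genes (81 measured) had a median of -0.04, with 0 higher and 2 lower, and summed to 27501 CPM in RNA-rich cells and 27903 CPM in RNA-poor cells. Mitochondrial ribosomal proteins (74) had a median of 0.01, translation factors (35) 0.04 and proteasome subunits (35) -0.01. RNA polymerase II and elongation factors (24) had 0.08 and ribosome biogenesis factors (21) 0.08. In libraries A to D the RNA polymerase II median was 0.09, 0.32, 0.45 and -0.48. The ribosome biogenesis median was 0.25, 0.12, 0.08 and -0.31, and that of mitochondrial ribosomal proteins -0.10, -0.07, 0.38 and -0.06. Growth signalling from insulin-like growth factor to mTOR (20) had a median of 0.05, with 1 higher and 3 lower. Of all genes 17.9% were higher and 10.4% lower. The growth median was 0.36, -0.08, -0.25 and -0.27 in libraries A to D. Rps2, of the small ribosomal subunit, was 1207 CPM in RNA-rich cells and 1261 CPM in RNA-poor cells. Rpl37, of the large one, was lower in RNA-rich cells within every library, at 284 CPM in RNA-rich cells and 397 CPM in RNA-poor cells.

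Nuclear and regulatory RNAs leaned upward in some members. The speckle-associated non-coding RNA Malat1 had 3689, 4519, 2908 and 4399 CPM in RNA-rich libraries and 2499, 2907, 2858 and 3412 CPM in RNA-poor ones. It was 1.30-fold overall but nearly equal in library C. Neat1, which builds paraspeckles, was 1.38-fold, and Mhrt, an RNA transcribed antisense at the myosin heavy chain locus, 1.05-fold. The list of nuclear-retained non-coding RNAs had 6 measured members, with 0 higher, 1 lower and 4 above 0. Of all genes 17.9% were higher and 10.4% lower. Its median was 0.23, with -0.01 in LV and 0.61 in RV, and 0.16, 0.32, -0.06 and 0.47 in libraries A to D. The splicing list (28 genes) had a median of 0.14. Its member Rbm20, which controls titin splicing, was 1.29-fold. Rbfox1, another splicing regulator, was 178 CPM in RNA-rich cells and 320 CPM in RNA-poor cells, and 34.5% of its RNA-poor UMIs came from 1 cell.

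Of 18 measured cardiac transcription factors 2 were higher and 2 lower, near or below the 17.9% and 10.4% of all genes. Above 0 were 12, with a median of 0.20. The median was -0.13 in LV and 0.31 in RV. Gata4, a driver of cardiac gene programmes, had 166, 189, 173 and 262 CPM in RNA-rich libraries and 134, 137, 81.4 and 101 CPM in RNA-poor ones, without overlap. Its ratio was 1.77 (counting interval 1.45 to 2.16). Tead1, which acts downstream of Hippo signalling, was 1.53-fold and without overlap, at 249 to 308 CPM in RNA-rich libraries and 156 to 217 CPM in RNA-poor ones. Nuclear receptors and coactivators of metabolism (19) had a median of 0.07. Ppargc1a, the coactivator that raises mitochondrial gene expression, was 374 to 421 CPM in RNA-rich libraries and 221 to 319 CPM in RNA-poor ones, and the receptor Esrrg 315 CPM in RNA-rich cells and 173 CPM in RNA-poor cells.

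The 4 lists with a median above 0.3 were inflammation, interferon and antigen presentation, apoptosis and p53, and unfolded protein and amino acid stress, each over few genes. The unfolded protein list had 4 higher and 0 lower of 15 measured, beside 17.9% higher and 10.4% lower of all genes, with a median of 0.31. Its most changed members were low: Atf6, a sensor in the endoplasmic reticulum, owed 30.1% and Atf5, a stress transcription factor, 33.6% of their RNA-rich UMIs to 1 cell. The chaperone Hspa5 was 314 CPM in RNA-rich cells and 253 CPM in RNA-poor cells. Stretch and hypertrophy genes (11 measured of 18) had a median of 0.29 with 2 higher and 0 lower. Inflammation (8) had a median of 0.58 and interferon and antigen presentation (11) 0.39, yet both were below 0 in libraries B and C and above 1 in A, where the RNA-rich cell with endothelial markers sits. That cell held 19.5% of the RNA-rich UMIs of the inflammation list and 33.4% of those of the interferon list. Without it the inflammation list summed to 233 CPM in RNA-rich cells and 234 CPM in RNA-poor cells, and the interferon list to 294 CPM in RNA-rich cells and 337 CPM in RNA-poor cells. Apoptosis and p53 genes (7) had a median of 0.36. Immediate-early genes (25) had a median of 0.18, with 0.20, 0.50, -0.17 and -0.14 in libraries A to D. The same cell held 13.9% of their RNA-rich UMIs. Without it they summed to 3071 CPM in RNA-rich cells and 3097 CPM in RNA-poor cells. Cell cycle genes (9) had a median of 0.26, with 13.8% from that cell. Jun and Fos, transcription factors induced by cell handling, were 1.18- and 1.16-fold. The cell with endothelial markers held 12.5% of the RNA-rich Jun UMIs and 11.4% of the RNA-rich Fos UMIs. Without it Jun was 487 CPM in RNA-rich cells and 455 CPM in RNA-poor cells. Fos was then 336 CPM in RNA-rich cells and 317 CPM in RNA-poor cells. The heat shock list (23) had a median of 0.01.

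Genes with long transcripts held a larger share in RNA-rich cells. Over 455 protein-coding genes with at least 1000 UMIs, the log2 ratio was correlated with the length of the longest annotated transcript, with Spearman's rho = 0.468. In 5 bins of 91 genes the median transcript length was 751, 1438, 2473, 3909 and 7152 bases, and the median log2 ratio -0.15, -0.03, -0.01, 0.08 and 0.23. The coefficient was 0.352, 0.438, 0.230 and 0.221 in libraries A to D, 0.221 in LV and 0.473 in RV. It was 0.157 between RNA-rich and middle cells and 0.439 between middle and RNA-poor cells. Without respiratory and ribosomal protein genes it was 0.454 over 340 genes. Over 4286 genes with at least 100 UMIs it was 0.190, and 0.00221 in library C. These are correlations across genes of the same cells, which are not independent. The ratio was also correlated with GC content of the transcript (rho = -0.238) and with UMI count (rho = -0.268), and their part in the relation was not tested.

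The same pattern could be followed cell by cell. In each cell the UMIs of the longest bin were set against those of the longest and shortest bins together. The median share was 50.4% in RNA-rich cells (range 34.7% to 72.3%), 48.1% in middle cells and 41.9% in RNA-poor cells (range 18.1% to 79.4%). By library the medians were 47.4%, 52.2%, 50.2% and 51.7% in RNA-rich cells and 41.1%, 41.6%, 39.6% and 44.3% in RNA-poor cells. Single cells overlapped widely while all 4 library medians of RNA-rich cells were above all 4 of RNA-poor cells. Without Ttn the medians were 45.2% in RNA-rich cells and 38.4% in RNA-poor cells. In LV the medians were 47.8% and in RV 52.0% in RNA-rich cells, with 42.7% in LV and 41.5% in RV in RNA-poor cells. Across 175 cells the share was correlated with the rank of RNA content within its set with rho = 0.308, and from -0.18 (LV of library C) to 0.57 (RV of library C) in single sets. The genes that set the bins were those of the same cells, so this restates the pattern at the level of cells.

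**Figure D4:**
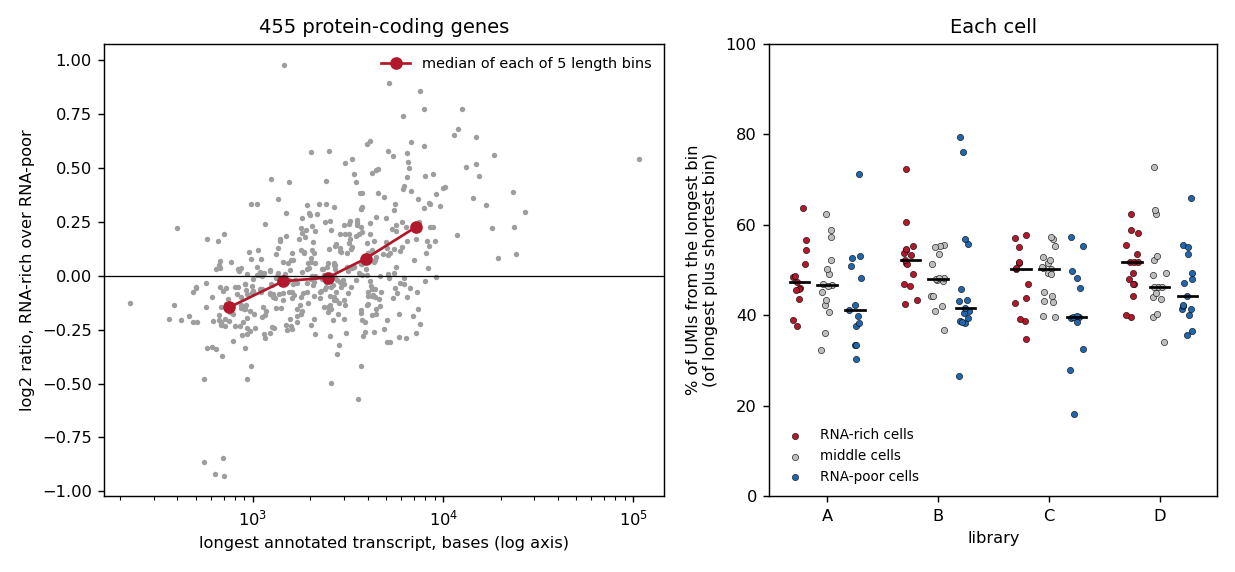
Left, log2 ratio of RNA-rich over RNA-poor cells for 455 abundant protein-coding genes against transcript length (log axis), with the median of each of 5 length bins in red. Right, for each cell, the share of UMIs from the longest bin of the longest plus shortest bins, by library with bars at medians; the RNA-rich median is above the RNA-poor median in every library.

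One abundant gene ran clearly against the trend. Mir99ahg is a long non-coding RNA at chr16:77236317-77773427 on the plus strand of GRCm38, and it was picked out after its values were seen. The locus contains 3 microRNA genes on the same strand, miR-99a, let-7c and miR-125b, small RNAs that silence messages through their seed bases. Mature microRNAs carry no poly(A) tail and were not measured here. Whether the RNA counted here contains them was not tested. Their sequences from RefSeq (GRCm38.p6) follow, with the seed, bases 2 to 8, in capitals, and the 3 seeds differ.
mmu-miR-99a-5p: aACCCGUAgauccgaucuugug
mmu-let-7c-5p: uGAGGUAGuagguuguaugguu
mmu-miR-125b-5p: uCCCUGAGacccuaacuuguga

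Mir99ahg had 5529, 4206, 4518 and 3786 CPM in RNA-rich cells of libraries A to D, and 14751, 6852, 6964 and 6125 CPM in RNA-poor cells. Every RNA-rich library was below every RNA-poor library, and the RNA-poor cells of library A stood far above the rest. Pooled, it was 4530 CPM in RNA-rich cells, 5889 in middle cells and 8259 in RNA-poor cells, a ratio of 0.549 (counting interval 0.534 to 0.564). The log2 ratio was -1.06 in LV and -0.71 in RV. Per cell the medians were 4290 CPM in RNA-rich cells, 5836 in middle cells and 6967 in RNA-poor cells, and the RNA-rich median was lower in 8 of 8 library and chamber sets. Across 175 cells its share was correlated with the rank of RNA content with rho = -0.488, and with -0.729, -0.308, -0.658 and -0.474 in libraries A to D. Scaled to the spike-ins it was 1.29-fold more abundant in RNA-rich cells, against 2.35-fold for all nuclear-encoded UMIs together.

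**Figure D5:**
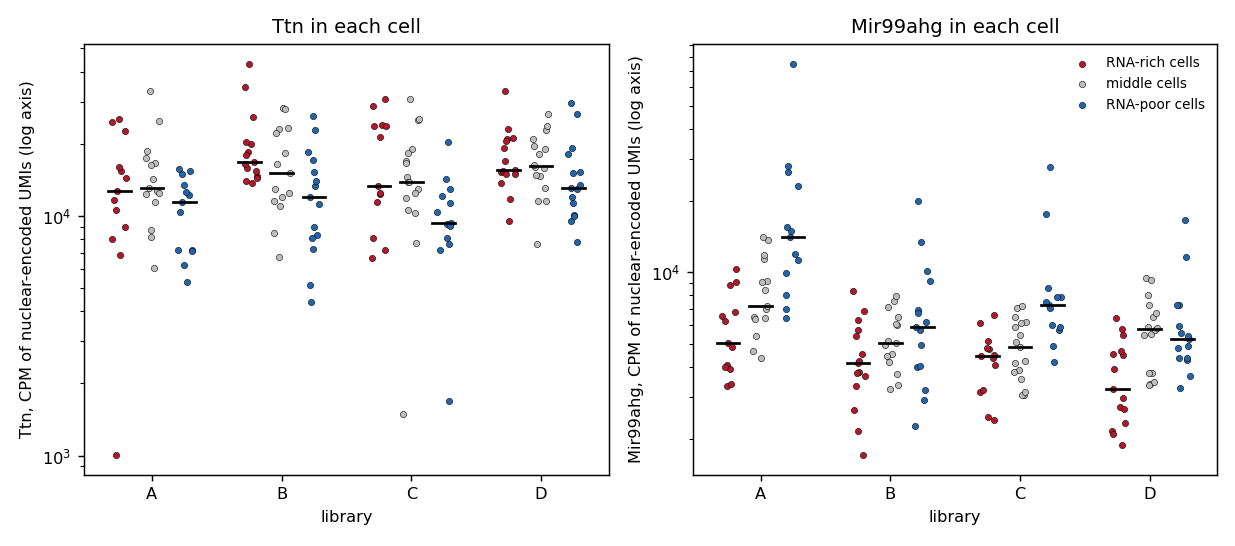
Ttn (left) and Mir99ahg (right) in each ventricular cell, in CPM of nuclear-encoded UMIs (log axis), by library with RNA-rich cells in red, middle cells in grey, RNA-poor cells in blue and bars at medians. The Ttn clouds overlap with RNA-rich medians above RNA-poor ones, and the Mir99ahg medians run the other way, with 1 RNA-poor cell of library A at 75126 CPM.

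Haemoglobin messages were the other abundant genes with a lower share in RNA-rich cells. Haemoglobin is made by red cell precursors, and blood RNA inside a sorted particle and free in the well cannot be told apart here. The 5 measured of 6 erythroid markers were all lower, and together took 9641 CPM in RNA-rich cells, 12970 in middle cells and 17886 in RNA-poor cells. By library the sums were 7545, 8099, 12081 and 11316 CPM in RNA-rich cells and 15458, 16330, 30512 and 10759 CPM in RNA-poor cells, so library D did not share the difference. Hbb-bs was 0.529-fold, and Hba-a1, Hba-a2 and Hbb-bt between 0.525- and 0.556-fold. These are near-identical gene copies, and how reads were divided among them is uncertain. Per cell the medians of the erythroid share were 0.550% in RNA-rich cells, 0.886% in middle cells and 0.845% in RNA-poor cells. The highest single cells were 4.90% among RNA-rich and 29.0% among RNA-poor cells, and 7 RNA-rich, 12 middle and 15 RNA-poor cells exceeded 2%. In 4 of 8 library and chamber sets the RNA-rich median was the higher one. With cells over 2% of other cells' markers left out, the list median was -0.08, against -0.86 with them, and Hbb-bs was at -0.23.

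A filter on counts, on agreement of the 4 libraries and on single cells left 532 genes to be ranked by size of change, 378 higher and 154 lower. The 15 highest lay at low levels, at most 135 CPM in RNA-rich cells and at most 50.5 CPM in RNA-poor cells. In all 15 the middle cells lay between the other groups. The genes were chosen for a large difference between those groups, so this order was favoured by the choice. Smc5, a subunit of a ring-shaped complex that acts in DNA repair (chr19:23206451-23273897, minus strand), had 52.1, 58.9, 63.2 and 22.8 CPM in RNA-rich libraries A to D and 25.1, 4.03, 3.39 and 10.4 CPM in RNA-poor ones. It was 4.89-fold (counting interval 2.70 to 9.72), on 120 UMIs in RNA-rich cells and 12 in RNA-poor cells. Its library values overlapped, with D of the RNA-rich cells below A of the RNA-poor cells.

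Among the 15 were several genes of RNA handling and transcription, chosen by their change alone. Sarnp, an mRNA export factor, was 4.06-fold, Prpf8, a component of the spliceosome, 2.80-fold, and Med28, of the Mediator complex that links transcription factors to RNA polymerase II, 2.95-fold. Meis1, a homeodomain factor known to restrain myocyte division, was 3.11-fold. Rbpms2, an RNA-binding protein of muscle, was 3.67-fold. The list of splicing regulators had 3 higher and 2 lower of 28, below the 17.9% and 10.4% of all genes.

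The others of the 15 had varied roles. Cep350 (centrosome) was 3.65-fold, Tmf1 (Golgi) 3.40-fold, Dpp8 (a peptidase) 3.04-fold and Usp34 (a deubiquitinase) 2.76-fold. Mitochondrial proteins were Mrpl9 (ribosome), Txnrd2 (thioredoxin reductase) and Mtg2 (a ribosome-associated GTPase), at 2.93-, 2.89- and 2.87-fold. Ranked by gene UMIs alone, Mrpl9 and Txnrd2 were at -0.09 and -0.53 on the log2 scale. Kcnj3, described above, completes the set. Their median transcript length was 5515 bases.

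The 15 lowest genes had a median transcript length of 3046 bases, and in 9 of them the middle cells lay between the others. Sfi1, a centrosome protein gene (chr11:3131850-3193463, minus strand), had 45.6, 40.8, 71.7 and 98.6 CPM in RNA-rich libraries and 109, 121, 326 and 109 CPM in RNA-poor ones. Its groups did not overlap, and the ratio was 0.375 (counting interval 0.301 to 0.467). When RNA content was taken from nuclear-encoded UMIs only, its log2 ratio was 0.0044. Dhrs1 (a reductase), at 18.0 CPM in RNA-rich cells and 51.4 CPM in RNA-poor cells, and Dgcr6, at 26.4 CPM in RNA-rich cells and 65.1 CPM in RNA-poor cells, were also without overlap. Sfi1, Dhrs1 and Dgcr6 were the 3 of the 15 whose amount per spike-in UMI was lower in RNA-rich cells.

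Bpgm and Mkrn1 were among the lowest genes. Bpgm, the enzyme that makes 2,3-bisphosphoglycerate in red cells, was 46.5 CPM in RNA-rich cells and 106 CPM in RNA-poor cells. Mkrn1, a ubiquitin ligase, was 53.1 CPM in RNA-rich cells and 113 CPM in RNA-poor cells, and its direction turned, to a log2 ratio of 1.58, without the cells over 2% of other cells' markers. The remaining genes were Pxmp4 (peroxisome membrane), Arpc4 (actin nucleation), Cxcl12 and Slit3 (secreted guidance signals), Apool (mitochondrial inner membrane), Ttc7b, Tenm2 (an adhesion protein), Naa20 (protein acetylation), Bmi1 and Tbl1x (both chromatin regulators), between 0.446- and 0.509-fold. For Tenm2 the middle cells were highest, at 90.8 CPM, and its direction turned under 4 alternatives.

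Golga4 was one of the 14 genes with at least 1000 UMIs that were higher, picked out after their values were seen. This Golgi tethering protein had 763, 634, 688 and 526 CPM in RNA-rich libraries and 355, 350, 319 and 402 CPM in RNA-poor ones, 1.82-fold without overlap. By library and chamber its log2 ratio ran from -0.19 (RV of library D) to 2.72 (LV of library C). Ptprm, an adhesion phosphatase also expressed by endothelium, was 1.88-fold, with 24.5% of RNA-rich UMIs from the LV cell of library A that carried endothelial markers. Without that cell it was 276 CPM in RNA-rich cells and 188 CPM in RNA-poor cells. Acta1 and Xirp2, described above, were also among the 14, with 1014 and 3179 UMIs over both groups. The 5 genes that were lower were Mir99ahg and the 4 haemoglobin genes.

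Markers of other cell types were low and uneven. Endothelial markers summed to 695 CPM in RNA-rich cells, 840 in middle cells and 482 in RNA-poor cells, and were higher in RNA-rich cells in libraries A and C and lower in B and D. Endocardial markers were 278 CPM in RNA-rich cells and 91.6 CPM in RNA-poor cells, mural markers 239 CPM in RNA-rich cells and 175 CPM in RNA-poor cells, and fibroblast markers 254 CPM in RNA-rich cells and 232 CPM in RNA-poor cells. The LV cell of library A with few myocyte markers held 60.3% of the RNA-rich endocardial, 47.3% of the endothelial and 22.6% of the mural UMIs. Without it the endocardial sum was 114 CPM in RNA-rich cells, against 91.6 CPM in RNA-poor cells. The endothelial sum was then 379 CPM in RNA-rich cells, below the 482 CPM in RNA-poor cells, and the mural sum 191 CPM in RNA-rich cells and 175 CPM in RNA-poor cells. Without library A the endothelial list median was -0.14 and the mural one -0.21. Macrophage markers had 1 measured gene of 11, and lymphocyte, Schwann and adipocyte lists had 0. Mesothelial markers, 3 measured of 7, were 43.1 CPM in RNA-rich cells and 81.3 CPM in RNA-poor cells. Some of these UMIs can be free RNA in the well; its part was not tested.

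The same cut was made in cells outside the rule, the ventricular myocytes of the second study, which were sorted either live or after ethanol fixation. Live cells gave 7 RNA-rich and 7 RNA-poor cells of 22, with median RNA contents of 715 in RNA-rich cells and 302 in RNA-poor cells, and fixed cells 11 and 11 of 34, with 454 in RNA-rich cells and 201 in RNA-poor cells. In these smaller pools the median of all genes was -0.19 in live and -0.40 in fixed cells, so list values are given relative to it. The length relation had the same direction, with rho = 0.395 over 446 genes in live cells and 0.469 over 443 in fixed cells. Ranked by gene UMIs without the spike-ins it was 0.128 in live and 0.0119 in fixed cells. Ttn had a log2 ratio of 0.55 in live and 0.61 in fixed cells. The intercalated disc list lay 0.80 above all genes in live and 0.46 above in fixed cells. Nuclear-encoded complex I lay at -0.38 in live and -0.35 in fixed cells, complexes II to V at -0.38 and -0.34, and cytosolic ribosomal proteins at -0.27 and -0.37, relative to all genes.

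Single genes were less uniform there. Mir99ahg was 132 CPM in RNA-rich cells and 229 CPM in RNA-poor cells among live cells, a ratio of 0.578 (counting interval 0.408 to 0.827), the same direction as in the multichamber libraries. Among fixed cells it was 68.4 CPM in RNA-rich cells and 61.7 CPM in RNA-poor cells, on 78 and 30 UMIs, with an interval from 0.719 to 1.75. Its level was thus far lower in that study than in the multichamber libraries, in both groups. Sfi1 was higher in RNA-rich live cells, with a log2 ratio of 1.36, and near even in fixed cells, at 0.0060. Sarnp, among the 15 highest genes of the multichamber cells, was lower in RNA-rich cells of both kinds. It was 0.468-fold in live cells (counting interval 0.229 to 0.989), on 22 UMIs in RNA-rich and 14 in RNA-poor cells. In fixed cells it was 0.543-fold (0.299 to 0.995), on 28 and 22 UMIs. Lama2, higher in RNA-rich multichamber cells, was lower here, at 0.647-fold in live cells (counting interval 0.442 to 0.960). In fixed cells it was 0.160-fold (0.0875 to 0.280), on 18 UMIs in RNA-rich and 48 in RNA-poor cells. The median of its dystrophin, laminin and caveolin list lay 0.30 above all genes in live and 0.29 above in fixed cells. Of the 15 highest genes 6 were measured in live and 5 in fixed cells, of which 3 in live and 4 in fixed cells lay above the median of all genes. Of the 15 lowest, 5 were measured in live and 6 in fixed cells, of which 2 in live and 4 in fixed cells lay below it.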

How the data were processed

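Per the labels' protocols, SCRB-seq primers carried a cell barcode of 6 bases and a UMI of 10. The authors deposited UMI counts and read counts per gene and well, not normalized, with a table of library, chamber and fixation labels. The submitters' processing notes list STAR 2.5.4b, featureCounts and build GRCm38 with no settings. Whether counting used strand is not stated, so a gene's reads and those of an antisense or overlapping neighbour may be mixed. The 45 columns with no label were not used. Of 24522 gene IDs, 24489 matched a GENCODE M21 symbol.

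Cells with at least 5000 gene UMIs and 50 ERCC UMIs were ranked by gene UMIs over ERCC UMIs within library and chamber. The 8 sets gave 6 to 8 cells per group. UMIs were summed per group and divided by the nuclear-encoded total; log2 ratios carry a pseudocount of 5 CPM and folds carry none. Genes with fewer than 30 UMIs over both groups were left out. Intervals are exact 95% Clopper-Pearson intervals of the split of a gene's UMIs; they cover counting error only, not spread between cells or animals. Depth per cell was 10352 to 223454 gene UMIs in the compared groups.

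The members and gene lists were chosen with earlier results of these data known. Named genes were the 15 highest and 15 lowest with at least 100 UMIs, at least 50 CPM in the higher group, the same side in 4 libraries and at most 20% of UMIs from 1 cell, all mitochondrially encoded genes, and of each list the 4 most abundant and the 2 most changed members; predicted genes were not named, and some genes the rule gives are not reported here. Ratios and intervals were tested on simulated data. Tables were handled in pandas 2.3.3 and numpy 2.4.6 under Python 3.11.15, intervals came from scipy 1.17.1 and figures from matplotlib 3.10.9. TMM factors, an alternative scaling, came from edgeR 4.0.16 in R 4.3.3.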

Additional observations from a re-analysis of the deposited data

Results flagged for a closer look

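Of 43 lists and 255 named genes compared between chambers, 1 gene moved one way in every library of one chamber and the other way in every library of the other. Hspa8, a constitutive chaperone, had a log2 ratio of RNA-rich over RNA-poor cells of 0.27 in LV and -0.19 in RV. It was above 0 in all 4 LV sets and below 0 in all 4 RV sets, and 618 CPM in RNA-rich cells and 608 CPM in RNA-poor cells overall. The difference between chambers was not tested.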

How the results depend on the processing

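Across 26 alternatives, the 15 highest and 15 lowest genes had the direction reported in 765 of 780 values. They were chosen for large changes on the same side in all 4 libraries, and most alternatives reuse the same cells, so this was largely fixed by the choice. Ttn (log2 ratio 0.19 to 0.76), Mir99ahg (-1.52 to -0.51) and the erythroid list (-1.52 to -0.08) had it in all 26, and Cacna1c in 25, with -0.05 in LV alone.

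The counts of genes at least 1.5-fold higher and lower depended on the settings most. They were 220 and 107 with each cell thinned to 5000 UMIs (1518 genes left), 2789 and 1939 with the deposited read counts, 631 and 382 with a pseudocount of 20 CPM, 103 and 18 among genes with at least 300 UMIs, and 2896 and 2697 among genes with at least 1 UMI. With RNA content from nuclear-encoded UMIs 614 were lower, and with each gene's top cell left out 1019 were higher. The higher share of all calls was 63.3%, against 85.1% at 300 UMIs, 51.8% at 1 UMI, 79.6% with nuclear-encoded content, 47.7% with a cut into 2 parts and 48.4% without each gene's top cell. The scalings tried gave 62.0% (TMM), 65.3% (median of ratios) and 67.3% (all gene UMIs).

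Gene UMIs per ERCC UMI were 3.16-fold with reads, 2.07-fold with at least 20000 UMIs per cell, 1.78-fold ranked by gene UMIs alone, 1.80-fold with a cut into 2 parts, 3.27-fold with the top and bottom of 6 parts, and 1.80-fold with barcode-adjusted content. The mitochondrial share differed by -8.63 percentage points with nuclear-encoded content and -6.96 with 6 parts, against -1.48. The length correlation was 0.303 with equal weight per cell, 0.278 thinned, 0.231 with 6 parts, 0.221 in LV alone and 0.282 with barcode-adjusted content. Ranked by gene UMIs alone it was 0.128 in live and 0.0119 in fixed cells, and 0.274 in fixed cells cut into 2 parts. The causes were not tested.

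Leaving out 1 library at a time gave 2.22- to 2.33-fold, 1329 to 1854 genes higher, 827 to 1041 lower, a mitochondrial difference of -3.11 to 0.401 points, a length correlation of 0.358 to 0.464, and 30 to 36 lists within 0.3 of 0. The endothelial list ranged from -0.14 without library A to 0.98 without library B, and the mural list from -0.21 without A to 1.20 without C.

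Some low-count genes and other-cell lists reversed (log2 ratios). Thinned, Prpf8 was at -0.047, Atf5 at -0.047 and Bmi1 at 0.079. With nuclear-encoded content Sfi1 was at 0.0044, Cxcl12 at 0.11 and Tenm2 at 0.62. Ranked by gene UMIs alone, Mrpl9 was at -0.089, Txnrd2 at -0.53, Tenm2 at 0.33, Naa20 at 0.030, Tbl1x at 0.56, Myh7b at -0.086, Acta1 at -0.31, Atp1b1 at -0.22, Rbfox1 at 0.023 and the mesothelial list at 0.014. Cut into 2 parts, the endothelial list was at -0.062 and the mural list at -0.024. In LV alone Tenm2 was at 0.12, Lama2 at -0.13 and the mesothelial list at 0.76, and in RV alone Apool was at 0.068 and the mural list at -0.41. Without cells over 2% of other cells' markers Mkrn1 was at 1.58 and the mural list at -0.0057. Without each gene's top cell the endothelial list was at -0.15. With barcode-adjusted content Tenm2 was at 0.034, Tbl1x at 0.18 and Pdlim3 at -0.35, and without cells under 5% myocyte markers the mural list was at -0.075. The barcode and myocyte-marker alternatives were chosen after seeing the data.

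No paired analysis was possible because no test was made: the labels give 1 sample for each study and name no animal. Both groups were cut within every library and chamber, and the values of each stand in the report. Without named animals, differences between libraries, hearts and plates cannot be told apart. Genes under about 100 UMIs are limited by depth, since 1 cell can hold a large part of their counts.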
